A study of Mus musculus with 31 samples.

Results

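The nuclear genes for subunits of the mitochondrial respiratory chain and of ATP synthase were followed in lymphoid tissues of mice with and without GIT2, an adaptor protein of the GRK-interacting family. Members were taken by gene symbol from the annotation of the array: symbols that begin with Ndufa, Ndufb, Ndufc, Ndufs or Ndufv (complex I), Uqcr, together with Cyc1 (complex III), Cox4, Cox5, Cox6, Cox7 or Cox8 (complex IV) or Atp5 (complex V), and the succinate dehydrogenase genes Sdhb, Sdhc and Sdhd (complex II). The assembly factors with names in Ndufaf and the isoforms Cox7a1 and Cox8b were left out. The array carried 79 such genes on 98 probes, and 73 of them, on 89 probes, were detected on at least 3 of 31 arrays and could be tested, out of 10496 genes tested in all. They comprised 34 genes of complex I, 3 of complex II, 7 of complex III, 14 of complex IV and 15 of complex V. The remaining 6 genes, Ndufs1, Uqcrfs1, Uqcrq, Atp5k, Cox7b2 and Cox8c, were detected on 0 arrays.

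The respiratory chain sits in the inner mitochondrial membrane. Complex I takes electrons from NADH and complex II takes them from succinate, ubiquinone carries them to complex III, and cytochrome c carries them on to complex IV, which reduces oxygen to water. Complexes I, III and IV pump protons as electrons pass, and complex V lets the protons flow back and makes ATP. A few core subunits are encoded by mitochondrial DNA, while the genes described here are nuclear. Resting lymphocytes rely largely on this chain for their ATP, and brown adipocytes and muscle fibres are among the cell types richest in it.

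Total RNA of 27 tissue samples was hybridised to Illumina MouseRef-8 bead arrays. The mice were males of 12 months, fasted before death, and were either GIT2KO homozygotes, which carry a gene trap in Git2 on a C57BL/6 background and so lack functional Git2 in all tissues, or C57BL/6 wild type (WT). Thymus, inguinal lymph nodes (ILN), mesenteric lymph nodes (MLN) and spleen were sampled in both genotypes, with 3 samples in each group. The ninth group held 3 samples labelled as extra lymph nodes, which were taken from GIT2KO mice only and are called parathymic lobes (PTL) in the study. The samples came from 7 mice, so tissues of one genotype shared animals, and the third PTL sample came from another mouse than the third GIT2KO sample of the other tissues. In whole tissue, fewer cells of a type and less RNA per cell cannot be told apart.

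The mean signal per array was between 208.6 and 590.9, and 45.9 to 52.8% of probes were detected on an array. The dimmest arrays were the repeat arrays of WT spleen replicate 3. Git2 was lower in GIT2KO than in WT in the 4 tissues on each of 3 probes, with log2 differences between -3.64 and -0.74 and limma adjusted p of at most 0.0341. The tissue labels were checked against marker genes: the mean of 4 thymic epithelium markers was between 11.07 and 11.37 in thymus samples and between 5.09 and 5.43 in PTL samples, with no lymph node sample above 5.30. In spleen this mean was 5.24, 5.09 and 5.19 in GIT2KO and 5.37, 6.17 and 5.55 in WT. Of 7 housekeeping genes 3 were called higher and 1 lower in GIT2KO thymus, and 1 higher and 2 lower in GIT2KO spleen. Levels are given as log2 of the quantile-normalized signal. A difference of 1 is a 2-fold difference. Each gene is given by its brightest probe, and levels of different genes are not compared, because probes differ in their response. A gene was called changed when its limma adjusted p, taken over all 15291 tested probes, was under 0.05.

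Promoters of these genes are classic targets of nuclear respiratory factor 1 (NRF1), of the ETS factor GABP and of YY1, so the bases around their start sites are shown first. RefSeq promoters of GRCm38.p6, from 250 bases before to 50 bases after the annotated start, matched 60 of the 73 members. The NRF1 motif GCGCATGCG or its reverse complement CGCATGCGC was in 6 of the 60 (10%) and in 1.81% of all 27025 promoters. The GABP motif CCGGAAG or CTTCCGG was in 14 (23.3%), against 9.12% of all promoters. The YY1 motif AAGATGGCG or CGCCATCTT was in 6 (10%), against 1.49%. The motif of the oestrogen-related receptors, TCAAGGTCA or TGACCTTGA, was in 2 (3.33%), Sdhd and Atp5g3, against 0.407%. At least one of the first 3 motifs was present in 23 members (38.3%) and in 11.8% of all promoters. A promoter with several motifs was counted under each, and a match gives the letters only, not a bound site. The matches printed here belong to members whose genotype difference varied between tissues by an F test, with the motif in capitals, 5′ to 3′ on the strand of the gene.
Cox6a1, NRF1, chr5:115349102-115349130, minus strand: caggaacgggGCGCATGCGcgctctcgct
Cox6a1, GABP, chr5:115348958-115348984, minus strand: cccatttccgCTTCCGGcgcgccggtg
Ndufa8, NRF1, chr2:36049329-36049357, minus strand: tcgctggagaCGCATGCGCagatggtacc
Uqcrc1, NRF1, chr9:108936668-108936696, plus strand: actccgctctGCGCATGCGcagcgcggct
Ndufb6, GABP, chr4:40279637-40279663, minus strand: cgtccttgttCTTCCGGtcccctcccc
Ndufs8, GABP, chr19:3912743-3912769, minus strand: taggctccgcCTTCCGGttgaaccgca
Ndufa9, YY1, chr6:126849097-126849125, minus strand: attgtgggagAAGATGGCGgccgccgtcc
Ndufc1, YY1, chr3:51408915-51408943, minus strand: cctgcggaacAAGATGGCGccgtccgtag
Counted from the start site, the first base of the motif lay at -162 for NRF1 and at -16 for GABP in Cox6a1, at -9 in Ndufa8 and at -232 in Ndufb6. It lay within the transcribed part in Ndufs8, Ndufc1, Ndufa9 and Uqcrc1. The promoter of Atp5pb matched with none of the 4 motifs, and Cyc1 had no matched promoter. Cox6a1 lies on chromosome 5 with Git2, with 32 annotated genes between them.

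To show each complex over the 9 groups, the deviation of every gene from its own mean over the samples was averaged per sample. For all 73 members the average deviation was 0.28, 0.49 and 0.19 in the 3 GIT2KO thymus samples and -0.07, -0.09 and -0.26 in the WT thymus samples. In spleen it was 0.15, 0.07 and 0.06 in GIT2KO and -0.15, -0.19 and -0.41 in WT. The GIT2KO samples lay above the WT samples in both organs without overlap. In MLN the GIT2KO samples had 0.04, 0.12 and 0.07 and the WT samples -0.07, -0.07 and -0.08, again without overlap but closer together. The MLN difference depended on the processing. With array brightness as a covariate, the median differences between GIT2KO and WT MLN were 0, 0.21, -0.08, -0.01 and 0.01 for complexes I to V. In ILN the values were -0.06, -0.09 and -0.22 in GIT2KO against -0.21, -0.19 and -0.26 in WT, and the groups overlapped. The PTL samples were the most uneven, with 0.61, 0.20 and 0.15. The mean was highest in GIT2KO thymus for 35 of the 73 genes and in PTL for 23, and it was lowest in WT spleen for 34, in WT ILN for 15 and in WT thymus for 11. The same counts over all genes are not given, so these have no background.

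**Figure D1:**
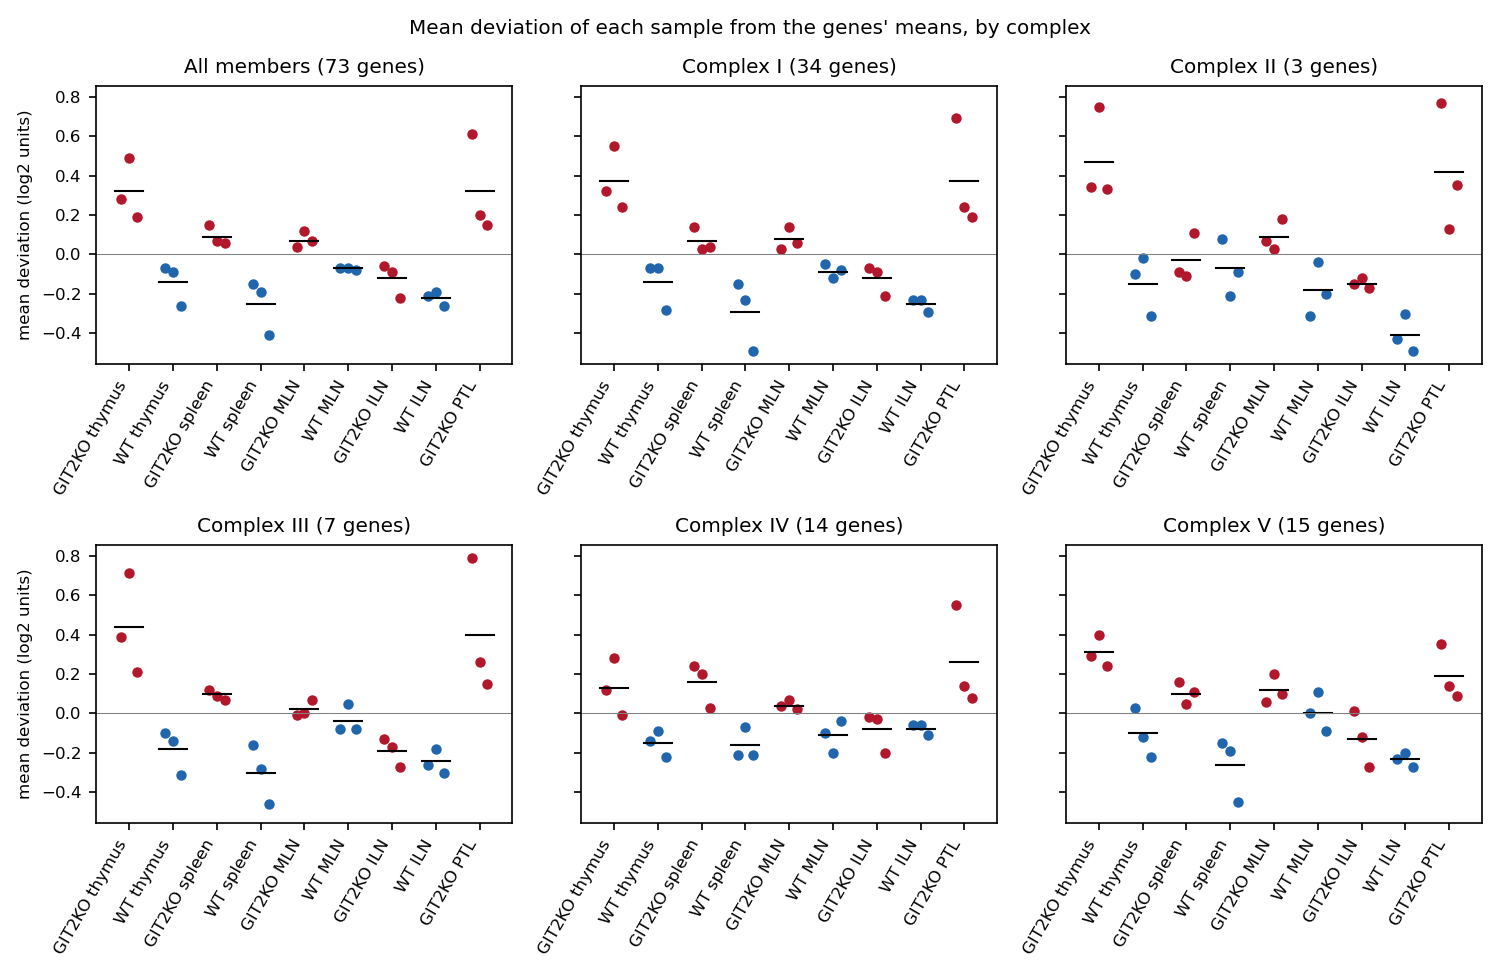
Mean deviation per sample from each gene's own mean, in log2 units, for all 73 members and for each complex, with a point per sample (replicates 1 to 3 from left to right) and a line at the mean of the 3 samples, GIT2KO in red and WT in blue. For all members the GIT2KO and WT samples of thymus, spleen and MLN do not overlap, and PTL replicate 1 stands at 0.61.

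By value, complexes II and III separated the genotypes most in thymus and complex IV least, which was not tested. Complex III had 0.39, 0.71 and 0.21 in GIT2KO and -0.10, -0.14 and -0.31 in WT. Complex I had 0.32, 0.55 and 0.24 against -0.07, -0.07 and -0.28, and complex V 0.29, 0.40 and 0.24 against 0.03, -0.12 and -0.22. Complex IV had 0.12, 0.28 and -0.01 against -0.14, -0.09 and -0.22, and its 2 groups still did not overlap. Complex II, measured by 3 genes only, had 0.34, 0.75 and 0.33 against -0.10, -0.02 and -0.31 in thymus. In spleen the genotypes did not overlap in complexes I, III, IV and V, and complex II was the exception. Its GIT2KO samples had -0.09, -0.11 and 0.11 and WT samples 0.08, -0.21 and -0.09. Sdhc rose and Sdhd fell there.

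The first comparison asked how the genes differed between GIT2KO and WT in thymus, the organ on which the study centred. Subunit genes of the complexes were mostly higher in GIT2KO thymus. Of the 73 members, 37 were called higher and 2 lower, where 6.96% of all genes tested were called higher and 9.17% lower. The median difference was 0.49 over the members and -0.05 over all genes tested, and 68 of the 73 were above 0. By complex, 15 of 34 genes were called higher in complex I, 2 of 3 in complex II, 7 of 7 in complex III, 4 of 14 in complex IV and 9 of 15 in complex V. The medians were 0.46, 0.79, 0.52, 0.41 and 0.45 in that order. All 34 complex I genes had a difference above 0, from 0.12 to 1.15, and the 7 genes of complex III ranged from 0.49 to 0.98.

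In complex I the largest differences in thymus were those of accessory subunits, which surround the catalytic core. Ndufb6 stood at 11.98, 12.09 and 11.73 in GIT2KO and at 10.95, 10.82 and 10.57 in WT thymus. Its difference was 1.15 ± 0.18 (SE, n = 3 per group, limma adjusted p = 0.000157), and its second probe rose by 0.95 (adjusted p = 0.0252). Both groups were apart by more than their own spread. Ndufa12 had 10.88, 10.98 and 10.71 against 9.90, 9.60 and 9.68 (1.13 ± 0.19, adjusted p = 0.000309). Ndufc1 had 11.19, 11.69 and 11.20 against 10.50, 10.26 and 10.18 (1.05 ± 0.18, adjusted p = 0.000399). Neither overlapped between genotypes. Ndufa4, found with complex I in early preparations and now regarded as a subunit of complex IV, rose by 0.88 ± 0.13 (adjusted p = 8.54e-05). Ndufs8, a core subunit that holds iron-sulfur clusters, rose by 0.48 ± 0.12 (adjusted p = 0.00928), and Ndufs3, another core subunit, by 0.51 ± 0.17 (adjusted p = 0.0402). Ndufv1, the core flavoprotein that takes electrons from NADH, was not called: its GIT2KO samples had 11.86, 12.44 and 11.87 and its WT samples 11.67, 11.88 and 11.44, which overlapped.

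In complex II, Sdhb, the iron-sulfur subunit, had 9.93, 10.27 and 9.78 in GIT2KO thymus and 8.96, 8.88 and 8.65 in WT thymus, a difference of 1.16 ± 0.22 (adjusted p = 0.000939). A second Sdhb probe gave 1.10 (adjusted p = 0.00289), while another, dim near 5.45 and 5.49, gave -0.04. Sdhc, a membrane anchor, rose by 0.79 ± 0.14 (adjusted p = 0.000572). The other anchor, Sdhd, did not follow, with 7.68, 8.39 and 7.56 in GIT2KO and 7.99, 8.16 and 7.73 in WT.

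All 7 measured genes of complex III were called higher in thymus. Cyc1 encodes cytochrome c1, the haem protein that passes electrons to cytochrome c. It stood at 10.21, 10.72 and 10.14 in GIT2KO and at 9.47, 9.41 and 9.25 in WT thymus (0.98 ± 0.16, adjusted p = 0.000332). The groups were far apart, with GIT2KO replicate 2 the highest. Uqcrb rose by 0.79 ± 0.18 (adjusted p = 0.00458) and Uqcrh, the acidic hinge protein, by 0.53 ± 0.13 (adjusted p = 0.00803). The core proteins Uqcrc1 and Uqcrc2 rose by 0.50 ± 0.16 and 0.50 ± 0.15 (adjusted p = 0.034 and 0.0234), and the small subunits Uqcr10 and Uqcr11 by 0.49 ± 0.17 and 0.52 ± 0.16 (adjusted p = 0.046 and 0.0272).

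Complex IV was mixed and held genes of opposite direction. Cox6a1, the widely expressed isoform of subunit VIa, had 12.49, 12.92 and 12.32 in GIT2KO thymus and 11.83, 11.86 and 11.56 in WT thymus (0.82 ± 0.17, adjusted p = 0.00256). Cox6a2, the heart and muscle isoform of the same subunit, had 5.95, 5.86 and 6.15 in GIT2KO and 6.88, 6.80 and 7.52 in WT, and fell by 1.08 ± 0.33 (adjusted p = 0.0289). The 2 isoforms thus differed between genotypes in opposite directions, each without overlap. Cox5a and Cox5b, nuclear subunits next to the catalytic core, rose by 0.82 ± 0.16 and 0.69 ± 0.16 (adjusted p = 0.00143 and 0.00616), and Cox7c rose by 0.59 ± 0.17 (adjusted p = 0.0178). Cox4i1, the common isoform of subunit IV, was 13.45, 13.40 and 13.20 against 13.01, 13.20 and 13.04 and was not called. Cox6b1 shows how a call can rest on the probe: its brightest probe differed by 0.49 (adjusted p = 0.0613) and its other probe by 0.90 (adjusted p = 0.000927).

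In complex V, Atp5pb, subunit b of the peripheral stalk that holds the catalytic head in place, had 10.99, 11 and 10.69 in GIT2KO thymus and 9.84, 9.47 and 9.57 in WT thymus (1.27 ± 0.21, adjusted p = 0.000276). Atp5o, the subunit that joins stalk and head, had 7.94, 8.18 and 7.90 against 7.20, 6.70 and 6.80 (1.11 ± 0.30, adjusted p = 0.0142). Both were above the WT samples throughout. Atp5e, subunit epsilon of the central stalk, went the other way, with 6.10, 6.33 and 6.14 in GIT2KO and 7.02, 7.21 and 6.92 in WT, and fell by 0.86 ± 0.23 (adjusted p = 0.0121). The catalytic subunit Atp5b rose by 0.54 ± 0.15 (adjusted p = 0.0157) and Atp5c1, subunit gamma, by 0.58 ± 0.15 (adjusted p = 0.00894). The c-ring gene Atp5g3 was 14.11, 14.04 and 13.94 in GIT2KO and 13.96, 13.88 and 13.81 in WT, and was not called.

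**Figure D2:**
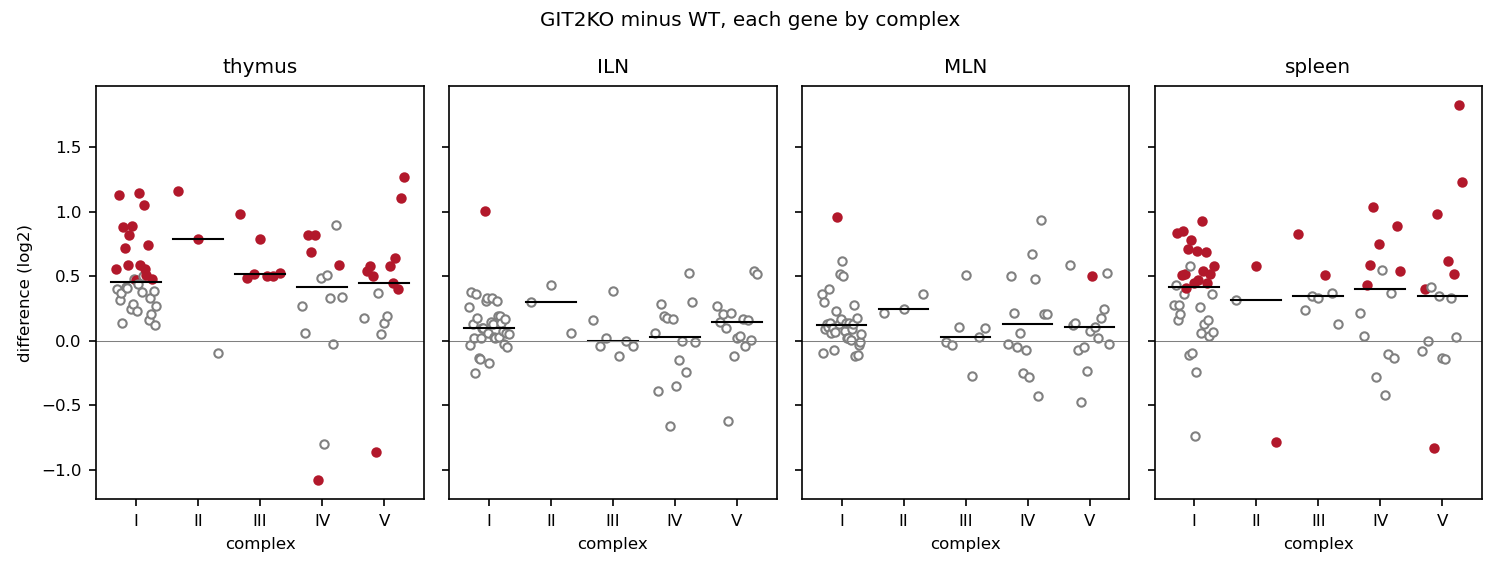
Difference between GIT2KO and WT (log2) of each of the 73 genes by complex in thymus, ILN, MLN and spleen, with filled red points for genes at limma adjusted p under 0.05, open grey points for the others and a line at the median of each complex. In thymus 39 genes are filled and in spleen 33, against 1 in ILN and 2 in MLN.

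Markers of other cells moved along in thymus. Of 13 adipocyte markers tested of 17 listed, 10 were called higher in GIT2KO thymus, with a median difference of 2.14, and their mean level was 9.80, 10.70 and 9.02 in GIT2KO against 8.03, 8.26 and 5.92 in WT. Ucp1, the uncoupling protein of brown adipocytes, was between 9.27 and 11.27 in GIT2KO thymus and between 4.58 and 8.66 in WT thymus, where 2 of 3 samples were above the detection limit. Cox7a1 and Cox8b, isoforms of heart, muscle and brown fat that were not among the members, were higher by 3.21 (adjusted p = 0.00051) and 2.67 (adjusted p = 0.00919). Of 4 erythroid markers 2 were called higher, at a mean level of 8.92, 9.60 and 6.88 against 6.36, 7.79 and 6.11. Of 8 double-positive thymocyte markers Cd1d1 was called lower, as was Cd22 among 6 B cell markers, and none of 4 skeletal muscle markers was called. With the mean level of the adipocyte markers as a covariate, 7 members were called higher in thymus and 0 lower, among 3.99% of all genes called in either direction, and the medians became 0.29, 0.61, 0.26, 0.22 and 0.33 for complexes I to V. The 7 were Ndufa12, Ndufb6, Ndufa4, Sdhc, Cyc1, Atp5pb and Atp5j. With the erythroid markers as the covariate 14 members were called higher and 1 lower, with 4.8% of all genes called in either direction. Without GIT2KO thymus replicate 1, 2 or 3 the count of members called was 30, 22 and 42. Without WT thymus replicate 1, 2 or 3 it was 36, 29 and 19. For fits without a sample, here and below, the shares of all genes called are not given, so these counts have no background. Of the 39 calls, 18 held without each of the 6 thymus samples in turn: Ndufa1, Ndufa4, Ndufa8, Ndufa9, Ndufa12, Ndufb6, Ndufb10, Ndufc1, Ndufc2, Sdhb, Sdhc, Uqcrb, Cyc1, Cox5a, Cox5b, Cox6a1, Atp5j and Atp5pb.

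**Figure D3:**
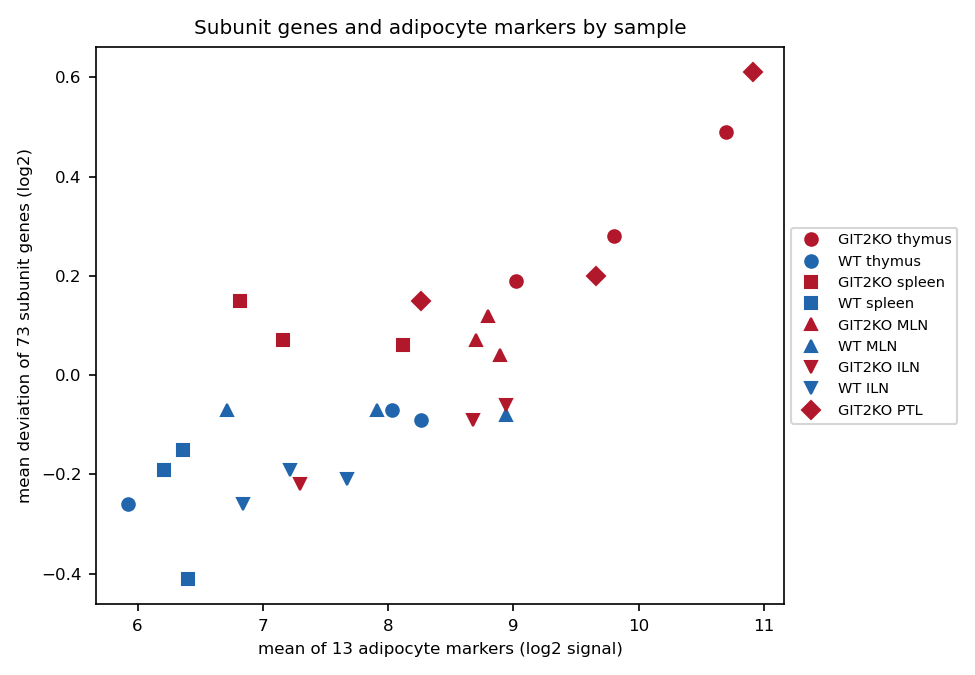
Mean log2 signal of 13 adipocyte markers (horizontal axis) and mean deviation of the 73 subunit genes (vertical axis, log2) in each of the 27 samples, with GIT2KO in red, WT in blue and a marker shape per tissue. PTL replicate 1 lies at 10.91 and 0.61, GIT2KO thymus replicate 2 at 10.70 and 0.49, and the WT spleen samples lie at the left with 6.21 to 6.40.

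Spleen was the second tissue with many differences. In GIT2KO spleen 31 members were called higher and 2 lower, where 10.6% of all genes were called higher and 13.7% lower. The median was 0.37 over the members and -0.04 over all genes, and 59 of 73 were above 0. Complex I had 16 genes called higher, complex III 2, complex IV 6 and complex V 6 higher and 1 lower, while complex II had 1 in each direction. The medians were 0.42, 0.32, 0.35, 0.40 and 0.35 for complexes I to V. Under median centring of the arrays in place of quantile normalization the differences of all genes in spleen shifted by -0.19, and 15 members were called higher and 3 lower, with 25.6% of all genes called in either direction.

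Atp5o differed most of all members in spleen. It stood at 7.37, 7.33 and 7.53 in GIT2KO and at 5.69, 6.22 and 4.85 in WT, where it was detected in 2 of 3 samples (1.83 ± 0.30, adjusted p = 0.000156). The groups were apart, and WT replicate 3, the dimmest sample, was also the lowest. Atp5pb had 10.32, 10.36 and 10.63 against 9.03, 9.56 and 9.04 (1.23 ± 0.21, adjusted p = 0.000193). Atp5g1, one of the 3 genes for the c-ring, had 11.69, 11.53 and 11.37 against 10.80, 10.87 and 9.98 (0.98 ± 0.19, adjusted p = 0.000702). Atp5e again went down, with 7.27, 6.64 and 6.65 in GIT2KO and 7.98, 7.41 and 7.67 in WT, and fell by 0.83 ± 0.23 (adjusted p = 0.00987). Among complex V genes of the spleen it was the only one called lower.

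In complex IV, Cox6a1 had 12.20, 12.27 and 12.29 in GIT2KO spleen and 11.11, 11.65 and 10.87 in WT spleen (1.04 ± 0.17, adjusted p = 0.00016). Cox7c rose by 0.89 ± 0.17 (adjusted p = 0.000538) and Cox6b1 by 0.75 ± 0.18 (adjusted p = 0.00381), with 1.06 on its other probe (adjusted p = 9.46e-05). Cox6b2, the testis isoform of subunit VIb, was 8.11, 7.77 and 7.23 in GIT2KO and 6.36, 7.12 and 7.99 in WT, which overlapped widely. In complex III, Cyc1 had 10, 10 and 9.83 against 9.18, 9.11 and 9.06 (0.83 ± 0.16, adjusted p = 0.000839), and Uqcrc1 rose by 0.51 ± 0.16 (adjusted p = 0.0207). The 7 genes of complex III were all above 0 in spleen, from 0.13 up to the value of Cyc1.

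In complex I of the spleen, Ndufc1 had 11.21, 11.06 and 11.02 in GIT2KO and 10.40, 10.24 and 9.86 in WT (0.93 ± 0.18, adjusted p = 0.000607). Ndufa5 had 11.03, 10.96 and 10.91 against 10.47, 10.33 and 9.56 (0.85 ± 0.18, adjusted p = 0.00176), and its second probe rose by 0.68 (adjusted p = 0.0293). Both genes were separated between genotypes. For Ndufs4, an accessory subunit next to the core, the probes disagreed in spleen: the brightest of 4 rose by 0.69 (adjusted p = 0.0159) and another fell by 0.62 (adjusted p = 0.0348), so no direction can be given, and the gene is counted by its brightest probe. The brightest probe of Ndufb6 rose by 0.70 (adjusted p = 0.0063), while its second probe gave -0.26 (adjusted p = 0.559). In complex II, Sdhc rose by 0.58 ± 0.14 (adjusted p = 0.00386), and Sdhd had 7.53, 7.40 and 7.95 in GIT2KO against 8.73, 7.83 and 8.66 in WT and fell by 0.78 ± 0.26 (adjusted p = 0.0304), with an overlap at GIT2KO replicate 3 and WT replicate 2.

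In spleen no adipocyte marker of 13 was called, but all 13 were above 0, with a median difference of 0.80. Their mean level was 6.82, 7.16 and 8.12 in GIT2KO and 6.36, 6.21 and 6.40 in WT. Ucp1 was not detected in any spleen sample. The 4 cell division genes tested of 10 were all called higher, with a median of 1.20 and mean levels of 10.46, 10.41 and 9.86 against 8.28, 9.41 and 9.51. Of 4 erythroid markers Klf1 was called higher, of 7 macrophage markers the 3 C1q genes, and of 4 skeletal muscle markers Mylpf. The macrophage markers were mixed: 4 of the 7 were above 0, and they ranged from -1.74 to 1.23. Called lower were 3 of 8 markers of double-positive thymocytes (Themis, Cd1d1 and Cd8b1), Ccl25 among 4 thymic epithelium markers and Cpt1b among 5 brown adipocyte markers. The part of these markers in the subunit differences was not tested beyond the covariate fits. With the adipocyte covariate 20 members were called higher and 3 lower in spleen, where 22.7% of all genes were called in either direction. With the cell division genes as a covariate 28 were higher and 0 lower, with 15.3% of all genes called, and with the erythroid markers 22 and 3, with 20.8%. Fitting the 2 spleen groups alone gave 13 higher and 0 lower, with 7.32% of all genes called. The count was 19 without WT spleen replicate 3 and 19 without GIT2KO spleen replicate 2. Of the 33 calls, 16 held without each of the 6 spleen samples in turn: Ndufa4, Ndufa5, Ndufa9, Ndufa12, Ndufc1, Ndufc2, Ndufs8, Sdhc, Cyc1, Cox6a1, Cox6b1, Cox7c, Atp5g1, Atp5j, Atp5o and Atp5pb.

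**Figure D4:**
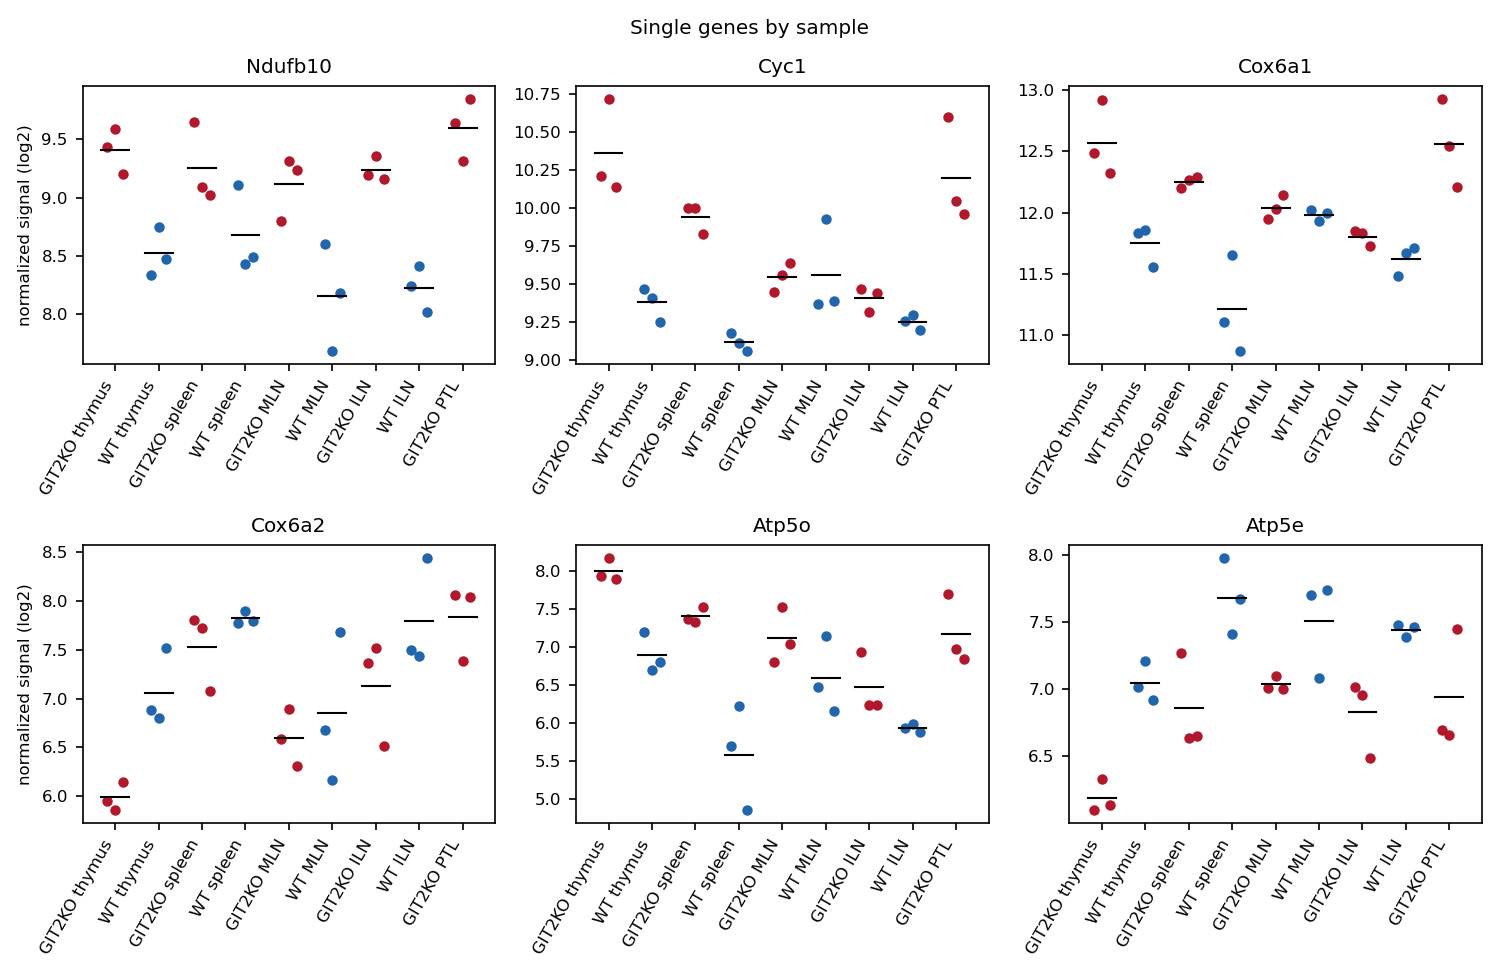
Normalized log2 signal of Ndufb10, Cyc1, Cox6a1, Cox6a2, Atp5o and Atp5e in each sample of the 9 groups, with a line at the mean of 3 samples, GIT2KO in red and WT in blue. Atp5o in WT spleen falls to 4.85 in replicate 3, Cox6a2 is lowest in GIT2KO thymus, and Atp5e is lower in GIT2KO than in WT thymus without overlap.

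In ILN and MLN few members differed. In ILN 1 was called higher and 0 lower (backgrounds 0.886 and 1.82%), and at an unadjusted p under 0.05 the limma counts were 6 and 1. In MLN 2 were called higher and 0 lower (0.810 and 1.34%), with 13 and 1 at an unadjusted p under 0.05. The shares of all genes in brackets are at adjusted p, and none is given for the unadjusted counts, which therefore have no background. The median difference was 0.10 in ILN and 0.11 in MLN, against 0 over all genes in each, and 52 and 53 of 73 genes were above 0. In ILN the medians by complex were 0.10, 0.30, 0, 0.03 and 0.15, and in MLN 0.12, 0.25, 0.03, 0.13 and 0.11. The median SE of a single gene's difference was 0.17. Of 13 adipocyte markers, 11 were above 0 in ILN (median 1.07) and 12 in MLN (median 0.64). In ILN 0 were called, and in MLN 1 was called higher and 0 lower.

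Ndufb10, an accessory subunit of the membrane arm of complex I, was the member called in 3 tissues. In ILN it had 9.19, 9.36 and 9.16 in GIT2KO and 8.24, 8.41 and 8.02 in WT (1.01 ± 0.22, adjusted p = 0.0115). In MLN it had 8.80, 9.31 and 9.24 against 8.60, 7.68 and 8.18 (0.96 ± 0.22, adjusted p = 0.0183), and in thymus 9.43, 9.59 and 9.20 against 8.33, 8.75 and 8.47 (0.89 ± 0.22, adjusted p = 0.00877). The genotypes did not overlap in these 3 tissues. In spleen its GIT2KO samples had 9.65, 9.09 and 9.02 and its WT samples 9.11, 8.43 and 8.49, which overlapped (0.58 ± 0.22, adjusted p = 0.0611). The call was lost in ILN without GIT2KO replicate 2 (adjusted p = 0.0606) or WT replicate 3 (0.0823), and in MLN without GIT2KO replicate 2 or 3 or WT replicate 2 (0.111, 0.109 and 0.0671). Atp5h, subunit d of the peripheral stalk, was the other member called in MLN, with 11, 11.27 and 10.99 in GIT2KO against 10.57, 10.56 and 10.64 in WT (0.50 ± 0.12, adjusted p = 0.0309). The Atp5h call was lost without any one GIT2KO MLN sample and without WT replicate 1. It was also lost with the deposited z-scores, with the adipocyte or brightness covariate, and when only the MLN groups were fitted.

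Across tissues, 32 members were higher by value in GIT2KO in all 4 and 2, Atp5e and Cox6a2, were lower in all 4. The share of all genes with the same sign in all 4 tissues is not given, so these counts describe the members only. For Atp5e the ILN samples had 7.02, 6.96 and 6.49 in GIT2KO against 7.48, 7.39 and 7.46 in WT, and the MLN samples 7.01, 7.10 and 7 against 7.70, 7.08 and 7.74, neither of which was called. There were 25 members called in both thymus and spleen in the same direction, Atp5e as lower and the other 24 as higher: Ndufa4, Ndufa5, Ndufa8, Ndufa9, Ndufa12, Ndufb3, Ndufb6, Ndufb7, Ndufc1, Ndufc2, Ndufs4 and Ndufs8 of complex I, Sdhc, Cyc1 and Uqcrc1, Cox5a, Cox5b, Cox6a1 and Cox7c of complex IV, and Atp5b, Atp5j, Atp5l, Atp5o and Atp5pb of complex V. The spleen calls of Ndufs4 and Ndufb6 rest on their brightest probes, since other probes of these genes lay below 0 there. Of all genes tested, 2.69% were called higher in both tissues and 3.77% lower in both. Another 13 members (17.8%) were called in thymus only, 8 (11%) in spleen only and 25 (34.2%) in no tissue, against 9.17, 17 and 64.4% of all genes. The members called in no tissue included Cox4i1, Atp5a1, which encodes subunit alpha of the head of complex V, and Ndufv1 and Ndufv2 of the NADH-binding module. A moderated F test of whether the 4 genotype differences were equal passed for 9 members, against 8.01% of all genes: 5 of complex I (Ndufa8, Ndufa9, Ndufb6, Ndufc1 and Ndufs8), Cyc1 and Uqcrc1 of complex III, Cox6a1 and Atp5pb. Cyc1 is given as an example. Its ILN samples had 9.47, 9.32 and 9.44 in GIT2KO and 9.26, 9.30 and 9.20 in WT, and its MLN samples 9.45, 9.56 and 9.64 against 9.37, 9.93 and 9.39, far closer than in thymus and spleen. Uqcrc1 was higher in GIT2KO thymus and spleen but 10.51, 10.64 and 10.50 in GIT2KO MLN against 10.78, 11.03 and 10.65 in WT MLN. When the difference in thymus was set against the mean of the other 3 tissues, 0 members passed in either direction (0.505 and 0.543% of all genes). At an unadjusted p under 0.05, 21 were above and 1 below 0, and by value 66 of 73 were above 0. Shares of all genes are not given for these last counts, so they have no background. The smallest adjusted p was 0.0605, for Ndufb6. The F test passed for 2 members without GIT2KO spleen replicate 2 and for 17 without WT spleen replicate 2. Under median centring it passed for 4 members, 2 of them among the 9, with 7.9% of all genes. With the erythroid markers as a covariate it passed for 0 members and 4.55% of all genes.

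The PTL samples were compared with the other GIT2KO tissues, and these 4 comparisons share the PTL samples. Against ILN, 17 members were called higher in PTL and 0 lower (2.40 and 2.19% of all genes), with 0 lower also at an unadjusted p under 0.05, and 72 of 73 were above 0 with a median of 0.47. Of the 17, 11 belonged to complex I, 4 to complex III, 1 to complex IV and 1 to complex V. Against MLN, 12 were higher and 0 lower (3.03 and 2.51%), with 0 lower at an unadjusted p under 0.05 and a median of 0.27. Shares of all genes at the unadjusted threshold are not given. Against spleen, 6 were higher and 1 lower (8.93 and 10.5%), with a median of 0.26. Against thymus, 4 were higher and 7 lower (20.1 and 21.3%), with a median of -0.03. Leaving out single samples moved these counts: to 7 against ILN without any one GIT2KO ILN sample, to between 2 and 5 against MLN without any one GIT2KO MLN sample, to 4 and 3 against spleen without GIT2KO spleen replicate 1 or 2, and to 17 and 7 against thymus without PTL replicate 1 or 3. Fitting only the groups compared ended all 17 calls against ILN and left 2 against MLN and 1 against spleen, with 0.495, 2.41 and 14% of all genes called.

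Of complex I, Ndufb6 had 12.17, 11.55 and 11.31 in PTL and 11.05, 10.77 and 10.72 in GIT2KO ILN (0.83 ± 0.18, adjusted p = 0.00763), and Ndufb2, an accessory subunit, was higher by 0.79 ± 0.20 (adjusted p = 0.0226). The PTL and ILN samples of Ndufb6 did not overlap. Cyc1 had 10.60, 10.05 and 9.96 in PTL and was higher than in ILN by 0.79 ± 0.16 (adjusted p = 0.00533) and than in MLN by 0.65 ± 0.16 (adjusted p = 0.0193). Cox6a1 had 12.93, 12.54 and 12.21 in PTL and was higher than in ILN by 0.76 ± 0.17 (adjusted p = 0.0118). Uqcrc1, a core protein of complex III, had 11.88, 11.33 and 11.15 in PTL and differed from ILN by 0.94 ± 0.16 (adjusted p = 0.000838), from MLN by 0.90 ± 0.16 (adjusted p = 0.00118) and from spleen by 0.47 ± 0.16 (adjusted p = 0.0402). GIT2KO ILN samples had 10.60, 10.52 and 10.41. PTL lay above them in each sample. Uqcr11, a small subunit, had 12.62, 11.82 and 11.97 in PTL against 11.57, 11.54 and 11.40 in spleen (0.63 ± 0.16, adjusted p = 0.00617). Ndufv1 had 12.64, 11.91 and 11.84 in PTL and was higher than in MLN by 0.75 ± 0.17 (adjusted p = 0.00808), in ILN by 0.64 ± 0.17 (adjusted p = 0.0266) and in spleen by 0.49 ± 0.17 (adjusted p = 0.0407). PTL replicate 1 was the highest of the 3 PTL samples for Ndufb6, Cyc1, Cox6a1, Uqcrc1, Uqcr11 and Ndufv1. Atp5d, subunit delta of the central stalk, had 11.02, 10.77 and 10.98 in PTL and was higher than in ILN by 0.65 ± 0.16 (adjusted p = 0.0233).

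Against thymus, 2 of the 14 genes of complex IV were called higher in PTL and 1 lower. Of all genes, 41.4% were called in either direction. The complex IV calls were for the isoforms Cox6a2, Cox4i2 and Cox6b2, a smaller share than among all genes. Cox6a2 had 8.06, 7.38 and 8.04 in PTL, higher by 1.84 ± 0.33 than in GIT2KO thymus (adjusted p = 9.54e-05), and Cox6b2 was lower by 0.99 ± 0.29 (adjusted p = 0.00766). Cox6b2 also set PTL, with 5.86, 5.31 and 5.85, apart from GIT2KO spleen, and fell by 2.03 ± 0.29 (adjusted p = 1.17e-05). Cox4i2, the lung isoform of subunit IV, was detected in 1 of 3 PTL samples and in 0 of 3 thymus or spleen samples. It was called higher in PTL than in thymus (adjusted p = 0.00103) and spleen (adjusted p = 0.00254). These calls set values largely near background against background, so no fold difference can be given. Cox6a2 was also higher in PTL than in MLN, by 1.23 ± 0.33 (adjusted p = 0.0313). In complexes I and II, Ndufb11 was higher in PTL than in thymus by 0.87 ± 0.27 (adjusted p = 0.0132), while Ndufs4 and Sdhc differed by -0.66 ± 0.20 and -0.49 ± 0.14 (adjusted p = 0.0117 and 0.00631). In complex V, Atp5g3, Atp5h, Atp5j and Atp5o were called lower in PTL than in thymus, with differences of -0.53, -0.44, -0.40 and -0.83, while Atp5e was higher by 0.75 ± 0.23 (adjusted p = 0.0102).

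**Figure D5:**
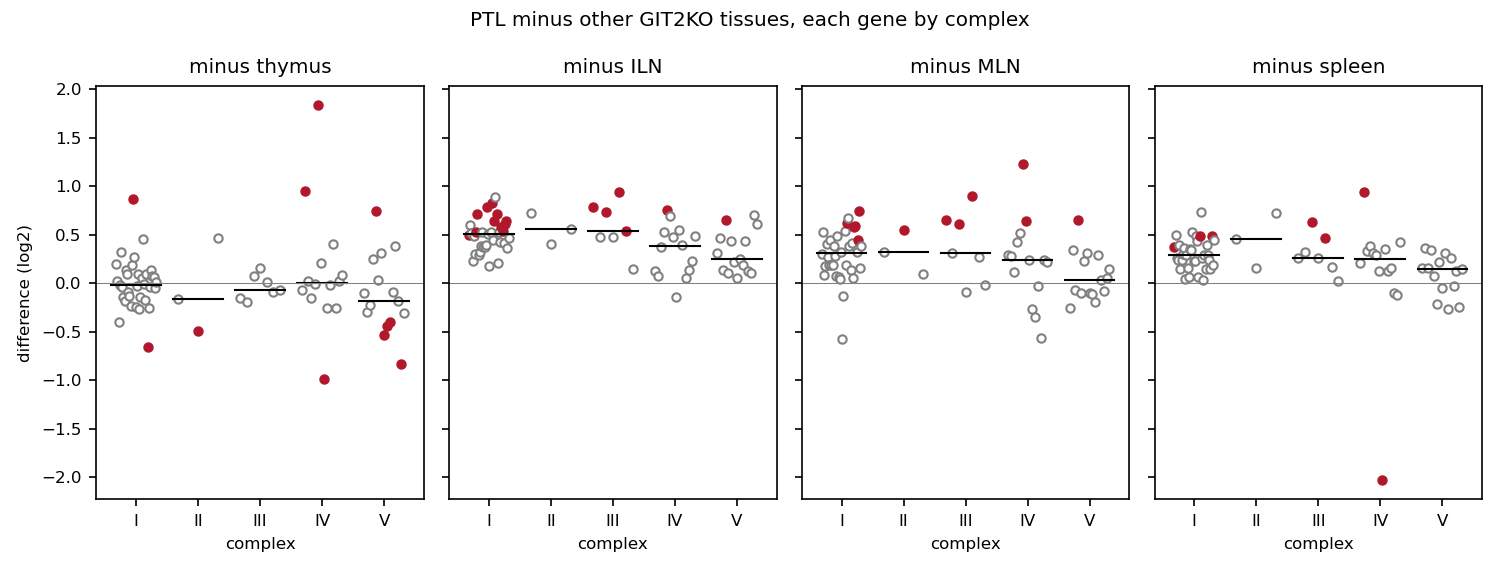
Difference between PTL and GIT2KO thymus, ILN, MLN or spleen (log2) of each of the 73 genes by complex, with filled red points at limma adjusted p under 0.05, open grey points for the others and a line at the median of each complex. Against ILN 17 genes are filled and all lie above 0, while against thymus 4 are filled above 0 and 7 below.

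PTL samples also carried brown adipocyte markers: all 5 tested of 7 were called higher in PTL than in ILN, with a median of 2.96, and Ucp1 was between 10.1 and 11.89 in PTL and not detected in ILN. Cox7a1 and Cox8b were higher by 5.38 and 4.28 there. All 5 were also called higher against MLN and against spleen, and Ppargc1a alone against thymus. The mean of the brown adipocyte markers was 9.55, 8.18 and 9.27 in the 3 PTL samples and that of the 13 adipocyte markers 10.91, 9.66 and 8.26, so that replicate 1 was highest on both lists and the other 2 changed places. Against thymus, 6 of 6 B cell markers and 4 of 7 macrophage markers were called higher in PTL, and 7 of 8 double-positive thymocyte, 4 of 4 thymic epithelium and 4 of 4 cell division genes lower. Against spleen, 3 of 4 erythroid markers and 4 of 4 cell division genes were lower. With the cell division genes as a covariate 1 member was called against thymus and 1 against spleen, with 22.1 and 7.46% of all genes called. With the adipocyte covariate 5 members were called against ILN (Ndufb6, Ndufs8, Cyc1, Uqcrc1 and Uqcr11), with 4.14% of all genes called, and without PTL replicate 1 the count was 3 against ILN, 2 against MLN and 2 against spleen. Without PTL replicate 3, the dimmest of the 3, it was 28 against ILN and 23 against spleen.

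Among the WT tissues the share of members called was below that of all genes in most comparisons and above it for genes lower in spleen than in MLN and lower in ILN than in MLN. WT thymus against ILN gave 8 higher and 5 lower (21.4 and 20.9% of all genes), thymus against MLN 5 and 8 (23.4 and 19.4%), and thymus against spleen 14 and 3 (22.8 and 22.9%). WT spleen against ILN gave 3 higher and 6 lower (12.7 and 12.8%), spleen against MLN 2 and 23 (14.2 and 11.1%), and ILN against MLN 1 and 3 (4.75 and 2.40%). The median differences of the 73 members were 0.12, -0.12, 0.16, -0.10, -0.21 and -0.16 in that order. Comparisons with WT spleen depended on the scaling: under median centring all genes shifted by -0.14 for thymus against spleen, 0.17 for spleen against ILN and 0.20 for spleen against MLN. The members called were then 4 higher and 6 lower, 9 and 1, and 8 and 5, with 42.1, 26.9 and 28.6% of all genes called in either direction.

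Cox6b2 had 7.24, 7.72 and 7.44 in WT thymus, 6.36, 7.12 and 7.99 in spleen, 6.27, 6.25 and 5.97 in ILN and 5.77, 5.40 and 5.95 in MLN. Thymus was higher than MLN by 1.76 ± 0.29 (adjusted p = 2.59e-05) and than ILN by 1.30 ± 0.29 (adjusted p = 0.000727), and spleen was higher than MLN by 1.45 ± 0.29 (adjusted p = 0.000692). The order was thymus, spleen, ILN and MLN, with thymus and spleen overlapping. Cox4i2 was detected in all 3 WT ILN samples, at 5.97, 5.89 and 5.91, and in 0 of 3 in WT thymus, spleen and MLN, so that ILN was at least 1.53-fold higher than thymus (adjusted p = 2.35e-05), at least 1.57-fold higher than spleen (adjusted p = 0.000109) and at least 1.41-fold higher than MLN (adjusted p = 0.00268). Cox7a2l, a factor that joins complexes III and IV into supercomplexes, had 11.59, 11.78 and 11.57 in MLN and 10.81, 10.92 and 10.24 in spleen, a difference of -0.99 ± 0.18 for spleen against MLN (adjusted p = 0.000263).

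In complex V, Atp5pb separated WT MLN, at 10.22, 11.08 and 10.06, from WT spleen by -1.24 ± 0.21 (spleen minus MLN, adjusted p = 0.000117) and from ILN, at 9.41, 9.70 and 9.29, by -0.99 ± 0.21 (ILN minus MLN, adjusted p = 0.00414). Atp5o was higher in WT thymus than in spleen by 1.32 ± 0.30 (adjusted p = 0.000931), and Atp5l, subunit g of the membrane part, had 10.77, 10.44 and 10.42 in WT thymus and 11.36, 11.29 and 11.42 in WT MLN (-0.81 ± 0.17, adjusted p = 0.000453). In complex I, Ndufs5-ps, annotated as a pseudogene of Ndufs5, was higher in WT thymus than in ILN, MLN and spleen by 0.81, 0.95 and 0.94 (adjusted p = 0.000147, 2.34e-05 and 2.55e-05), and a probe of that name may also bind RNA of the parent gene. The accessory subunit Ndufb11 was lower in WT thymus and in WT spleen than in MLN, with differences of -0.95 ± 0.27 and -0.91 ± 0.27 (adjusted p = 0.00665 and 0.0157). The brightest probe of Ndufs4, whose probes disagreed between genotypes in spleen, was higher in thymus than in spleen by 0.76 ± 0.20 (adjusted p = 0.00371), and Ndufa6 was lower in spleen than in ILN (-0.56 ± 0.16, adjusted p = 0.0116). For spleen against MLN, 13 genes of complex I were lower and 0 higher, with a complex I median of -0.16. Under median centring 2 were lower and 2 higher, and this median was 0.11. The deposited z-scores gave 5 lower and 0 higher, and fitting the 2 groups alone gave 0 in either direction. In these fits 28.6, 26 and 3.97% of all genes were called. Without WT spleen replicate 3 the total called for spleen against MLN fell from 25 to 6. It fell from 9 to 2 for spleen against ILN and from 17 to 10 for thymus against spleen.

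In complexes II and III, Sdhc had 10.66, 10.81 and 10.59 in WT thymus and was higher there than in ILN, MLN and spleen by 0.54, 0.50 and 0.44 (SE 0.14 each, adjusted p = 0.00263, 0.00495 and 0.0116). Uqcrh had 12.70, 12.59 and 12.42 in WT thymus against 12.94, 12.96 and 12.86 in ILN and 12.90, 13.01 and 12.99 in MLN, and was lower in thymus than in either (-0.35 ± 0.13 and -0.39 ± 0.13, adjusted p = 0.0368 and 0.0188). Each WT thymus sample lay above those of the other WT tissues for Sdhc, where the nearest was a spleen sample at 10.55, and below the lymph nodes for Uqcrh. The 3 genes that encode the same c-ring protein differed between WT tissues in different comparisons: Atp5g3 was higher in WT thymus than in ILN and MLN by 0.46 ± 0.10 and 0.36 ± 0.10 (adjusted p = 0.000935 and 0.00651), and Atp5g2 was lower in WT spleen than in ILN and MLN (-0.47 ± 0.15 and -0.49 ± 0.15, adjusted p = 0.0204 and 0.0154), as was Atp5g1 in spleen against MLN (-0.59 ± 0.19, adjusted p = 0.0231).

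Other genes of the pathway were followed as lists. Of 36 assembly factors tested of 47, 7 were called higher and 2 lower in GIT2KO thymus, 1 and 0 in ILN, 1 and 1 in MLN, and 6 and 4 in spleen. Of all genes, 6.96% were called higher and 9.17% lower in thymus, and 10.6 and 13.7% in spleen. In ILN the shares were 0.886 and 1.82%, and in MLN 0.810 and 1.34%. Timmdc1, which helps to assemble the membrane arm of complex I, was higher in each tissue: by 1.58 ± 0.35 in thymus (adjusted p = 0.00399), 2.20 ± 0.35 in ILN (0.000363), 2.40 ± 0.35 in MLN (0.000141) and 1.83 ± 0.35 in spleen (0.000627). Its GIT2KO samples lay between 8.01 and 9.29 and its WT samples between 5.94 and 7.19 in these tissues, with no overlap. Cox17, which delivers copper for complex IV, rose by 0.45 ± 0.12 in thymus (adjusted p = 0.0131) and by 0.87 ± 0.12 in spleen (adjusted p = 2.85e-05). Sdhaf3, an assembly factor of complex II, rose by 0.98 ± 0.16 in thymus (adjusted p = 0.000365). Lyrm7, which serves the iron-sulfur protein of complex III, fell by 1.00 ± 0.14 in thymus (adjusted p = 3.92e-05) and was not detected in the other tissues.

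Of 9 carrier and exchange genes tested of 10, 6 were called higher in thymus, with a median of 0.84, and 1 in spleen. The shares of all genes called higher were 6.96% in thymus and 10.6% in spleen. Etfdh, Etfa and Etfb, which feed electrons from fatty acid oxidation into ubiquinone, rose by 1.23 ± 0.31, 0.98 ± 0.18 and 0.84 ± 0.25 in thymus (adjusted p = 0.00819, 0.000704 and 0.0237). The ADP/ATP carrier Slc25a5 rose by 0.85 ± 0.18 (adjusted p = 0.00254), and the outer membrane channel Vdac3 by 1.00 ± 0.19 in thymus (adjusted p = 0.00106) and 0.86 ± 0.19 in spleen (adjusted p = 0.00194). Cycs, cytochrome c itself, differed by 0.17 in thymus (adjusted p = 0.636) and -0.01 in spleen (adjusted p = 0.983). Of 12 regulators of mitochondrial biogenesis tested of 18, none was called in thymus, where the median was 0.06, and in spleen Myc was higher by 0.86 (adjusted p = 0.0135) and Ppargc1b fell by 0.61 (adjusted p = 0.0111). Atpif1, the inhibitor protein of complex V, rose by 0.66 ± 0.19 in spleen (adjusted p = 0.0128) and differed by 0.06 in thymus (adjusted p = 0.888).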

How the data were processed

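The authors hybridised RNA to Illumina MouseRef-8 arrays and took signals from GenomeStudio 2011.1. Their deposited intensity table, not normalized, holds 25697 probes on 31 arrays of 27 samples. The deposited detection p-value of each probe came from GenomeStudio. The score values that the authors deposited are log10 signals turned into z-scores per array, and were used as an alternative. Intensities were background-corrected with neqc of limma 3.58.1 (R 4.3.3, offset 16), quantile-normalized and logged, and repeat arrays of 4 samples were averaged. Probes with detection p under 0.05 on 3 arrays or more (15291) entered one limma-trend fit of 9 groups, with Benjamini-Hochberg adjustment over all probes. A gene is its brightest tested probe. Genes were named where they had the largest differences per complex, opposed the main direction, passed in several tissues or by the F test, were paired isoforms, or had probes that disagreed. A Cox4i2 bound sets the brighter mean against the detection limit of the dimmer group. Members and lists were chosen with earlier results of these data known. Cell division, erythroid and brightness covariates were chosen after seeing the data. The number of arrays limits precision. p-values measure spread between samples of a few mice.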

Additional observations from a re-analysis of the deposited data

Results flagged for a closer look

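The moderated F test of whether the genotype difference was the same in thymus, ILN, MLN and spleen passed for 9 of 73 members. The limma adjusted p was 0.0139 for Cyc1, 0.0143 for Atp5pb and 0.0221 for Cox6a1. It was 0.0277 for Ndufa8, 0.0318 for Ndufb6, 0.0351 for Uqcrc1 and 0.0367 for Ndufc1, and 0.0373 for Ndufa9 and 0.0457 for Ndufs8. The 9 genes had larger differences in thymus and spleen than in the lymph nodes. Of all genes tested, 8.01% passed. Under median centring 4 members passed, of which 2 were among these 9, with 7.9% of all genes. With the erythroid covariate 0 members passed, with 4.55% of all genes.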

How the results depend on the processing

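Counts of members called are totals over both directions, compared with 39 in thymus, 33 in spleen, 1 in ILN, 2 in MLN, 9 by the F test and 0 for thymus against the other tissues between genotypes. The other main totals were 11, 17, 12 and 7 for PTL against thymus, ILN, MLN and spleen, and 13, 13, 17, 9, 25 and 4 for WT thymus against ILN, MLN and spleen, spleen against ILN and MLN, and ILN against MLN. Counts not given stayed within 1.5 times. Among the named genotype calls no alternative run reversed a gene. Of their values, 957 kept the call and 316 lost it under other settings. When one sample was left out, 328 kept and 122 lost it. Between WT tissues the direction did depend on the scaling. For WT spleen against MLN the main fit gave 2 higher and 23 lower, and median centring 8 and 5. For spleen against ILN 3 and 6 became 9 and 1. The cause was not tested.

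With median centring the F test gave 4, spleen 18 (17 of them shared), PTL 9, 5 and 4 against ILN, MLN and spleen, WT thymus against spleen 10, WT spleen against MLN 13 and WT ILN against MLN 1. Of all genes, 7.9, 25.6, 3.3, 5.44, 18.1, 42.1, 28.6 and 6.22% were called in that order. With the deposited z-scores thymus gave 24 (all shared), MLN 1, the F test 5, thymus against the rest 1, PTL against spleen 12, and WT spleen 3 against ILN and 13 against MLN. The shares of all genes were 12.7, 1.8, 6, 0.877, 17.2, 26.1 and 26% in that order. Without a filter the F test gave 5 and PTL against spleen 3 (3.74 and 11.2% of all genes). Averaging the probes of a gene gave 1 for thymus against the rest (1.08% of all genes). Fitting only the groups compared gave spleen 13, ILN 5, MLN 0, the F test 17, thymus against the rest 5, PTL 0, 2 and 1 against ILN, MLN and spleen, WT thymus 22 against ILN and 8 against spleen, WT spleen 2 against ILN and 2 against MLN, and WT ILN against MLN 1. In that order the shares of all genes were 7.32, 8.5, 0.629, 10.1 and 1.92%, then 0.495, 2.41 and 14% for PTL. For the WT comparisons they were 51, 34.6, 17.3, 3.97 and 1.31%. The adipocyte covariate gave thymus 7 (all shared), MLN 1, the F test 5, PTL 5 against ILN and 2 against spleen, and WT spleen against MLN 10. Of all genes, 3.99, 1.85, 7.2, 4.14, 12.5 and 20.2% were called in that order.

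Of the covariates added after seeing the data, array brightness gave MLN 1, the F test 15, thymus against the rest 4, PTL 30 against ILN and 17 against spleen, and WT ILN against MLN 9. The shares of all genes were 2.28, 10.7, 1.46, 5.96, 19.3 and 10.2% in that order. The cell division genes gave ILN 2, PTL 1, 10 and 1 against thymus, ILN and spleen, WT thymus against ILN 2, WT spleen against ILN 1 and WT ILN against MLN 0. Of all genes, 2.82, 22.1, 2.92, 7.46, 17.1, 5.51 and 1.01% were called in that order. The erythroid markers gave thymus 15, the F test 0, PTL 3 against each of ILN, MLN and spleen, WT thymus against spleen 8, and WT spleen 0 against ILN and 2 against MLN. The shares of all genes were 4.8, 4.55, 2.36, 3.33, 2.73, 15.2, 2.85 and 1.22% in that order. The methods' t-test on z-scores at its unadjusted threshold gave spleen 16, ILN 11, MLN 15, PTL 36, 37 and 20 against ILN, MLN and spleen, WT thymus 21 against ILN and 7 against spleen, WT spleen 5 against ILN and 7 against MLN, and WT ILN against MLN 16. Of all genes, 18.5, 17.4, 10.8, 12.2, 17.1 and 22.7% were called in the first 6. The WT comparisons had 51.1, 34.6, 23.4, 14.2 and 14.4%. After Benjamini-Hochberg it gave thymus 2, PTL 2 and 1 against thymus and spleen, WT thymus against MLN 4, and 0 for spleen, ILN, MLN, PTL against ILN and MLN, WT thymus against spleen, WT spleen against ILN and MLN, and WT ILN against MLN. The shares of all genes were 2.35, 22.5, 3.61 and 19.1% for the comparisons with calls. For those without, they were 0, 0.343, 0.0191, 0, 0, 12.3, 2.67, 0 and 0.0667% in that order.

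Leaving out one sample at a time gave 19 to 42 in thymus, 19 to 34 in spleen, 0 to 1 in ILN, 0 to 2 in MLN, 2 to 17 by the F test and 0 to 2 for thymus against the rest. For PTL it gave 7 to 17, 3 to 28, 2 to 14 and 2 to 23 against thymus, ILN, MLN and spleen. For WT thymus it gave 9 to 14, 10 to 16 and 10 to 20 against ILN, MLN and spleen, for WT spleen 2 to 13 and 6 to 25 against ILN and MLN, and for WT ILN against MLN 2 to 7. The shares of all genes called in these fits are not given. The low counts in ILN (0) came without GIT2KO replicate 2 or WT replicate 3, and in MLN (0) without GIT2KO replicate 2 or 3. The F test fell to 3 without GIT2KO MLN replicate 1 or 3 or WT thymus replicate 3, to 4 without GIT2KO thymus replicate 2, and to 5 without replicate 2 of either ILN group.

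Replicate numbers mark the same mouse across tissues of a genotype but only a number between genotypes: same-numbered GIT2KO and WT samples had a median correlation of deviations of 0.0627 (-0.125 to 0.258, 12 pairs). With that number as a replicate block thymus gave 45, spleen 39, ILN 1, MLN 2, the F test 15 and thymus against the rest 3. Of all genes, 17.9, 25.1, 2.96, 2.56, 8.98 and 2.12% were called in that order. With the mouse as a random replicate block (correlation 0.0463) the F test gave 12 and thymus against the rest 1 (9.94 and 1.42% of all genes). The 3 samples a group and array brightness limit what could be detected, and dim members such as Cox4i2 and Ndufab1, each detected on 8 arrays, have levels close to background.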
